A study of Mus musculus with 9 samples.

Results

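The 10 genes described here (Spp1, Gpnmb, Lpl, Cst7, Trem2, Tyrobp, Cd68, Lgals3, Clec7a and Axl) are a named list of genes of activated, phagocytic microglia, the resident macrophages of the brain. They were looked up by symbol among the 18138 genes of the count table, and all 10 were present. RNA was sequenced from mouse brain in 3 groups of 3 libraries: control mice, mice given middle cerebral artery occlusion (MCAO, surgery that blocks a main artery of the brain and models ischaemic stroke), and mice given hypidone hydrochloride (also called YL-0919, an antidepressant candidate that acts on the serotonin transporter) at 5 mg/kg for 7 days after the same surgery. The title of the series asks whether the drug lessens injury and inflammation after MCAO. The groups are called control, MCAO and hypidone below, and each library carries the number in its title (control 4, 5 and 6, MCAO 4, 5 and 6, and hypidone 2, 7 and 8). Strain, age, sex, brain region, hemisphere, sham surgery, vehicle and the time of sampling after surgery are not stated in the labels used here, and no genetic change is named for any group. Nor do the labels tie each library to an animal of its own. The p-values below therefore cover the spread among libraries, and part of that spread may be technical.

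Trem2 is a lipid-sensing receptor on the microglial surface that has no signalling tail of its own and passes its signal through the adaptor Tyrobp (DAP12), whose tyrosine motif recruits the kinase Syk. Microglia that meet myelin debris, dead cells or amyloid lower part of their resting programme and raise a set of genes for uptake, lysosomal breakdown and lipid handling, and much of that second step is known in mice to need Trem2. The 10 genes span this route: receptors (Trem2, Clec7a, Axl) and the adaptor Tyrobp, proteins of the lysosome and of damaged membranes (Cd68, Cst7, Lgals3, Gpnmb), and secreted proteins that act outside the cell (Spp1, Lpl). None of them belongs to microglia alone, since other macrophages express most of them and neurons, astrocytes or vessels can express Lpl, Axl or Spp1.

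The genes lie on 8 chromosomes of mm10 (GRCm38, GENCODE M21): Spp1 at chr5:104435118-104441050, Gpnmb at chr6:49036546-49070929, Lpl at chr8:68880491-68907448, Cst7 at chr2:150570415-150578944, Trem2 at chr17:48346401-48354147, Tyrobp at chr7:30413760-30417585, Cd68 at chr11:69664213-69666153, Lgals3 at chr14:47367751-47386160, Clec7a at chr6:129461591-129472779 and Axl at chr7:25757273-25788705. Cd68, Clec7a and Axl are on the minus strand and the other 7 on the plus strand. The annotation types 9 as protein coding and Clec7a as a polymorphic pseudogene. Spp1 shares 1252 bases with the predicted gene Gm42793 on the same strand, which is not a row of the count table, and no other member overlaps an annotated gene.

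RefSeq promoter windows (GRCm38.p6, 250 bases before to 50 bases after the annotated start) were matched for 8 of the 10 genes, all but Lpl and Tyrobp. Spp1 and Clec7a had 2 windows each, so the counts of genes below are set beside shares of windows, a different unit. The windows were searched on both strands for 4 short motifs of factors known in macrophages: TGANTCA (AP-1), GAGGAAG (a PU.1 core), CACGTG (the E-box of the lysosomal regulators TFEB and TFE3) and CATGTGA (an E-box of MITF). The AP-1 motif was found in 4 of the 8 genes, against 7.81% of all 32851 windows, and the PU.1 core in 3 of the 8 (Spp1, Trem2 and Axl), against 13.6% of windows. Neither E-box form was found in the 8 genes, against 7.15% and 3.99% of windows. The AP-1 motif and the PU.1 core did not overlap in the Trem2 window, which holds both. The sequences below are the 4 windows with an AP-1 motif and the Spp1 window that held a match, Spp1 being the member with the largest change after MCAO. Each is read 5′ to 3′ along the gene's strand with motif matches in capitals. They span chr6:49036268-49036567 (plus strand), chr2:150570165-150570464 (plus), chr17:48346151-48346450 (plus), chr11:69666121-69666420 (minus) and chr5:104434861-104435160 (plus).
Gpnmb: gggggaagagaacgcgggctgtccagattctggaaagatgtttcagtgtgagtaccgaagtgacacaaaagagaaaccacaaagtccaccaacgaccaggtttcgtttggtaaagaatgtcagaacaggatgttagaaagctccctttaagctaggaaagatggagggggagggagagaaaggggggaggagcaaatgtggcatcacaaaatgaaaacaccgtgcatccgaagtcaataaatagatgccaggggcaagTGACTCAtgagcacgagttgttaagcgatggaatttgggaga
Cst7: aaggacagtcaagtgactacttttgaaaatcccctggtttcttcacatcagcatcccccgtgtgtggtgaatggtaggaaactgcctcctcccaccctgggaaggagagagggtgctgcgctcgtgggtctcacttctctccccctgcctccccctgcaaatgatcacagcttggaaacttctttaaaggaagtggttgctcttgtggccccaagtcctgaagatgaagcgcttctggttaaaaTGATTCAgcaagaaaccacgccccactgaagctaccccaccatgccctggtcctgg
Trem2: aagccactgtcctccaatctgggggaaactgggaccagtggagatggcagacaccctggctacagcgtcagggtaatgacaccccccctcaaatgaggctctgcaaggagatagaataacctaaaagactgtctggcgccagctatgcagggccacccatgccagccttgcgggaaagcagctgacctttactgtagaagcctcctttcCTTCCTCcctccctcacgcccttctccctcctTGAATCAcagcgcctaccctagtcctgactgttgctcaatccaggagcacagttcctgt
Cd68: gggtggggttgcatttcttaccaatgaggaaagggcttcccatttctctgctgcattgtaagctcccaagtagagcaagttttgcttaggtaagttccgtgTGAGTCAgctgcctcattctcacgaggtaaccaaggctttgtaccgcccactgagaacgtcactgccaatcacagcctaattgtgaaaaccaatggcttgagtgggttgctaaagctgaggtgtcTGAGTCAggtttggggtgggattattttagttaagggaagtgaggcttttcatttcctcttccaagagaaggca
Spp1: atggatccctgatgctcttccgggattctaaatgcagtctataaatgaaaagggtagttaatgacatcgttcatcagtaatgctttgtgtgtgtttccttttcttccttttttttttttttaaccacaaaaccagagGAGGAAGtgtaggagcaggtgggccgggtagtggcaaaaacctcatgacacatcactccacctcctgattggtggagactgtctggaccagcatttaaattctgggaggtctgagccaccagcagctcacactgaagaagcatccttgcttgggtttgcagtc
In Gpnmb the AP-1 match TGACTCA began 8 bases after the start. In Cst7 (TGATTCA) and Trem2 (TGAATCA) it began at -6 and -9, just before the start, and Cd68 carried TGAGTCA at both -149 and -24. The PU.1 core began at -113 in Spp1, at -41 in Trem2 (printed as its complement CTTCCTC) and at -131 in Axl. These matches describe the letters of the windows and are not evidence of binding.

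The libraries held 32075682 (control 4) to 37325027 (MCAO 4) counts, 14756 genes had enough counts to be tested, and all 10 members were among them with at least 2 counts in each library. Levels are given as CPM (counts relative to the TMM-scaled library size) and differences as log2 fold changes ± SE from a quasi-likelihood fit in edgeR over all 9 libraries, called where the p adjusted over the 14756 genes was under 0.05. The 3 comparisons share libraries, each group standing in 2 of them, so their values are given side by side and are not independent. Control 5 stood apart from the other libraries in markers of hippocampal neurons (692 CPM summed over 9 genes, against 48.8 to 80.2 elsewhere) and of choroid plexus (193 CPM over 5 genes, against 2.16 to 11.4). MCAO 5 held the lowest level of neuronal markers (5376 CPM over 9 genes), with 7395 in MCAO 6, 7641 in control 5 and 10296 to 12016 in the other 6 libraries.

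After MCAO 9 of the 10 genes rose, all but Lpl. The largest changes were in Spp1 (osteopontin), Gpnmb, Lgals3 (galectin-3) and Cst7, which rose 147-fold, 107-fold, 105-fold and 54.4-fold in the fit, and the smallest call was Axl at 1.54-fold. Of all genes tested 10.6% were called higher and 9.81% lower, and the median log2 fold change was 4.30 over the 10 genes and 0.01 over all genes. With hypidone 5 of the 10 (Spp1, Gpnmb, Trem2, Tyrobp and Cd68) fell against MCAO, where 8.28% of all genes were called lower and 8.23% higher, with a median of -2.65 over the 10 and -0.04 over all genes. No member was called between hypidone and control, where 0% of all genes were called in edgeR, 131 genes and 1 member (Cst7) had an unadjusted p under 0.05, DESeq2 called 1 gene and no member, and limma voom called none. The plot of CPM by library shows that most of the rise came with wide differences among the 3 MCAO libraries.

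**Figure D1:**
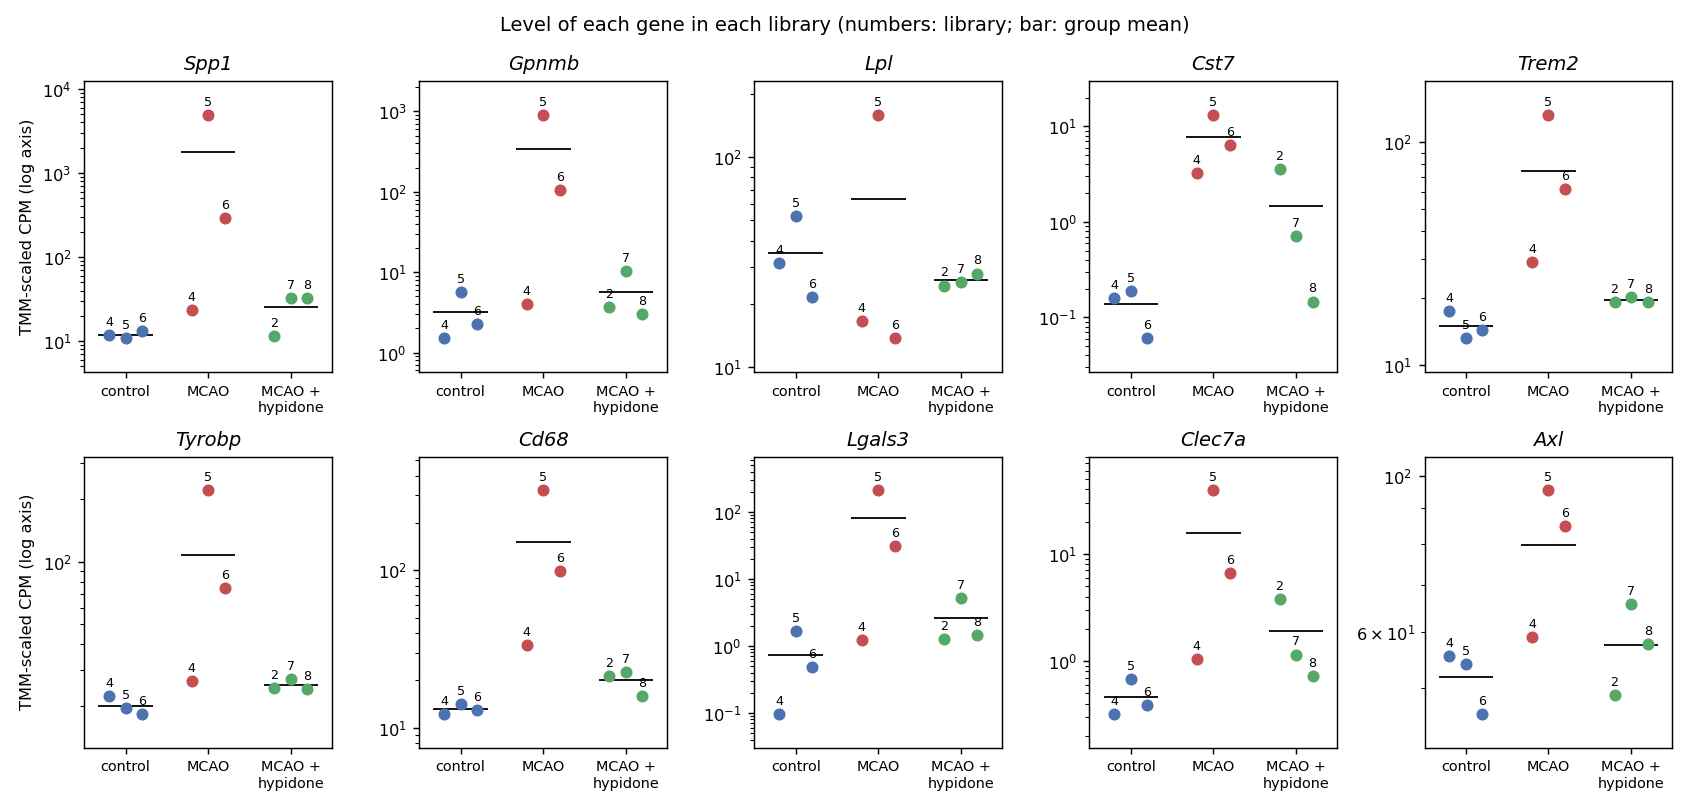
CPM of each of the 10 genes in the 9 libraries (log axis, 1 panel per gene, points are libraries and the bar is the group mean). MCAO 5 is the highest library in all 10 panels, and MCAO 4 lies above all 3 hypidone libraries only for Trem2 and Cd68.

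These counts depended on single libraries. Without control 4 or without control 6, only Cd68 and Trem2 of the 9 were still called after MCAO, and the other 7 had an adjusted p between 0.05004 and 0.146. Axl was called in only 1 of the 9 fits that left out a library (without MCAO 4), and Tyrobp was also lost without control 5 (adjusted p = 0.0544). For hypidone against MCAO, 8 members were called without MCAO 4, 6 without control 5, 2 (Cd68 and Trem2) without MCAO 5, control 4 or control 6, 1 (Cd68) without MCAO 6, and 1 (Cst7) without hypidone 2. None was called without hypidone 7 or without hypidone 8, when 7 and 6 members had an unadjusted p under 0.05. With all libraries, DESeq2 also called Cst7, Lgals3 and Clec7a lower with hypidone, and limma voom these 3 and Axl.

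Trem2, the receptor, had 17.6, 13.2 and 14.3 CPM in control 4, 5 and 6, 29.2, 133 and 61.8 CPM in MCAO 4, 5 and 6, and 19.3, 20.3 and 19.3 CPM in hypidone 2, 7 and 8. The 3 groups did not overlap in any pair: each MCAO library lay above each hypidone library, and each hypidone library above each control. After MCAO Trem2 rose by 2.31 ± 0.45 (adjusted p = 0.0109), and 1.61 without MCAO 5. It fell by 1.93 ± 0.44 with hypidone against MCAO (adjusted p = 0.0220), or by 1.23 without MCAO 5. Between hypidone and control the difference was 0.38 ± 0.43 on the log2 scale (95% interval -0.59 to 1.36). That error is shared over the 3 groups, and the SD of log2 CPM was 1.09 in MCAO, 0.21 in control and 0.04 in hypidone. The interval is therefore not a measure of the spread within hypidone and control alone. The hypidone libraries were closer to each other in Trem2 than in most genes, since 93.7% of genes had a wider range in that group.

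Tyrobp, the adaptor that carries the signal of Trem2 and of several other myeloid receptors, had 22.4, 19.7 and 18.4 CPM in control, 26.4, 221 and 74.7 CPM in MCAO 4, 5 and 6, and 24.6, 27.1 and 24.4 CPM in hypidone. MCAO 4 lay within the hypidone range, while MCAO 5 and MCAO 6 lay above all other libraries. Tyrobp rose by 2.41 ± 0.60 after MCAO (adjusted p = 0.0254), or 1.34 without MCAO 5, and fell by 2.08 ± 0.60 with hypidone (adjusted p = 0.0445), or by 1.01 without MCAO 5 (adjusted p = 0.0716). Its difference between hypidone and control was 0.33 ± 0.58 (95% interval -0.98 to 1.64), and the hypidone libraries lay above the controls.

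Clec7a (dectin-1), a pattern receptor for fungal glucans that also signals through Syk, was nearly silent in control, with 0.319, 0.679 and 0.391 CPM. It had 1.05, 39.2 and 6.56 CPM in MCAO 4, 5 and 6, and 3.83, 1.15 and 0.732 CPM in hypidone 2, 7 and 8. Hypidone 2 and hypidone 7 lay above MCAO 4, and each hypidone library above each control. Clec7a rose by 5.06 ± 1.26 after MCAO (adjusted p = 0.0250), or 3.04 without MCAO 5. The difference of -3.03 ± 1.12 with hypidone against MCAO did not pass the threshold (adjusted p = 0.0912), nor did that of 2.02 ± 1.16 between hypidone and control (95% interval -0.60 to 4.65).

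Axl, a receptor kinase that binds dying cells through the bridging protein Gas6, moved least. It had 55.5, 54.0 and 45.8 CPM in control, 59.1, 95.3 and 84.7 CPM in MCAO 4, 5 and 6, and 48.8, 65.8 and 57.6 CPM in hypidone 2, 7 and 8. The MCAO libraries lay above the controls, and hypidone 7 lay above MCAO 4. Axl rose by 0.62 ± 0.19 after MCAO (adjusted p = 0.0462), and its difference with hypidone was -0.47 ± 0.19 against MCAO (adjusted p = 0.110) and 0.15 ± 0.19 against control (95% interval -0.27 to 0.57).

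Cd68, a heavily glycosylated protein of the lysosome and late endosome that marks phagocytic activity, had 12.2, 14.1 and 12.9 CPM in control, 33.3, 323 and 98.8 CPM in MCAO 4, 5 and 6, and 21.4, 22.6 and 15.9 CPM in hypidone 2, 7 and 8. As for Trem2, MCAO lay above hypidone and hypidone above control with no overlap. Cd68 rose by 3.54 ± 0.68 after MCAO (adjusted p = 0.0106), or 2.36 without MCAO 5. It fell by 2.93 ± 0.66 with hypidone against MCAO (adjusted p = 0.0210), or by 1.74 without MCAO 5 (adjusted p = 0.0160). Cd68 kept its call after MCAO in all 9 fits that left out a library and its call with hypidone in 6 of 9, the most of any member. The difference between hypidone and control was 0.61 ± 0.63 (95% interval -0.81 to 2.03).

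Cst7 (cystatin F), an inhibitor of lysosomal cysteine proteases, had the lowest mean control level of the 10 by FPKM (0.137 ± 0.0696, SD, n = 3). Its control libraries held 5, 7 and 2 counts, or 0.160, 0.190 and 0.0601 CPM. It had 3.24, 13.3 and 6.45 CPM in MCAO 4, 5 and 6, and 3.54, 0.708 and 0.146 CPM in hypidone 2, 7 and 8. Cst7 was the only member for which MCAO 4 stood far from the controls, at 23.7 times their mean, while the corresponding ratio was between 0.473 and 2.56 for the other 9. Within hypidone the libraries differed 24.2-fold: hypidone 2 lay within the MCAO range and hypidone 8 within the control range, a wider range than in all but 0.0474% of genes in that group. Cst7 rose by 5.77 ± 1.17 after MCAO (adjusted p = 0.0124), and 5.12 without MCAO 5. The difference between hypidone and MCAO was -2.38 ± 0.95 (adjusted p = 0.111) and, of the 9 fits with a library left out, passed in that without hypidone 2, at -4.15 (adjusted p = 0.0474). It also passed in DESeq2 (-2.39, adjusted p = 0.0380) and in limma voom (-3.26, adjusted p = 0.00174). Against control it was 3.38 ± 1.10 (95% interval 0.90 to 5.87, adjusted p = 0.9999), the largest estimate of the 10 in that comparison.

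Lgals3 (galectin-3), a sugar-binding protein that gathers on damaged lysosomes and is also secreted, had 0.0958, 1.66 and 0.481 CPM in control, where control 4 held only 3 counts. It had 1.22, 210.1 and 30.9 CPM in MCAO 4, 5 and 6, and 1.27, 5.11 and 1.43 CPM in hypidone 2, 7 and 8. MCAO 4 lay below control 5 and below all 3 hypidone libraries, and MCAO 5 lay 172 times above it. Lgals3 rose by 6.72 ± 1.70 after MCAO (adjusted p = 0.0262), or 4.41 without MCAO 5. The difference of -4.95 ± 1.54 with hypidone against MCAO had an adjusted p of 0.0561, and passed without control 5 (adjusted p = 0.0494) and without MCAO 4 (adjusted p = 0.00939). Between hypidone and control it was 1.77 ± 1.53 (95% interval -1.68 to 5.21).

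Gpnmb, a transmembrane glycoprotein of lysosomes and melanosomes that rises in lipid-laden macrophages, had 1.501, 5.73 and 2.25 CPM in control, 4.07, 910 and 105 CPM in MCAO 4, 5 and 6, and 3.74, 10.5 and 3.05 CPM in hypidone 2, 7 and 8. MCAO 4 lay below control 5 and hypidone 7, so neither comparison with MCAO was free of overlap. Gpnmb rose by 6.74 ± 1.66 after MCAO (adjusted p = 0.0242), or 4.11 without MCAO 5, and fell by 5.88 ± 1.59 with hypidone (adjusted p = 0.0371), or by 3.27 without MCAO 5 (adjusted p = 0.0703). The range of Gpnmb within MCAO was the widest of the 10 (224-fold), and only 0.0136% of genes had a wider one. The difference between hypidone and control was 0.85 ± 1.39 (95% interval -2.29 to 3.99).

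Spp1 (osteopontin), a secreted glycoprotein that binds integrins, had 11.9, 10.8 and 13.2 CPM in control, 23.3, 4961 and 295 CPM in MCAO 4, 5 and 6, and 11.5, 32.3 and 32.9 CPM in hypidone 2, 7 and 8. Hypidone 2 lay within the control range, and hypidone 7 and hypidone 8 lay above MCAO 4. In MCAO 5 it made up 70.2% of the counts of the 10 genes, which together took 0.762% of that library. Their share was 0.0801% in MCAO 6, 0.0186% in MCAO 4, 0.0127% to 0.0174% in control and 0.0162% to 0.0211% in hypidone. Spp1 rose by 7.20 ± 1.69 after MCAO (adjusted p = 0.0204), or 3.75 without MCAO 5, and fell by 6.11 ± 1.60 with hypidone (adjusted p = 0.0335), or by 2.65 without MCAO 5 (adjusted p = 0.0538). The difference between hypidone and control was 1.10 ± 1.32 (95% interval -1.89 to 4.08).

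Lpl (lipoprotein lipase), which splits the triglycerides of lipoproteins, was the member that passed no test. It had 31.3, 52.2 and 21.5 CPM in control, 16.6, 159 and 13.7 CPM in MCAO 4, 5 and 6, and 24.5, 25.4 and 27.9 CPM in hypidone. MCAO 4 and MCAO 6 lay below every other library, and MCAO 5 above every other, which no other member showed. The difference after MCAO was 0.85 ± 0.82 (adjusted p = 0.480) and its direction turned without MCAO 5, to -1.20, which passed (adjusted p = 0.0352). With hypidone against MCAO it was -1.28 ± 0.82 (adjusted p = 0.298), and 0.76 without MCAO 5 (adjusted p = 0.134). Against control it was -0.43 ± 0.82 (95% interval -2.28 to 1.41).

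**Figure D2:**
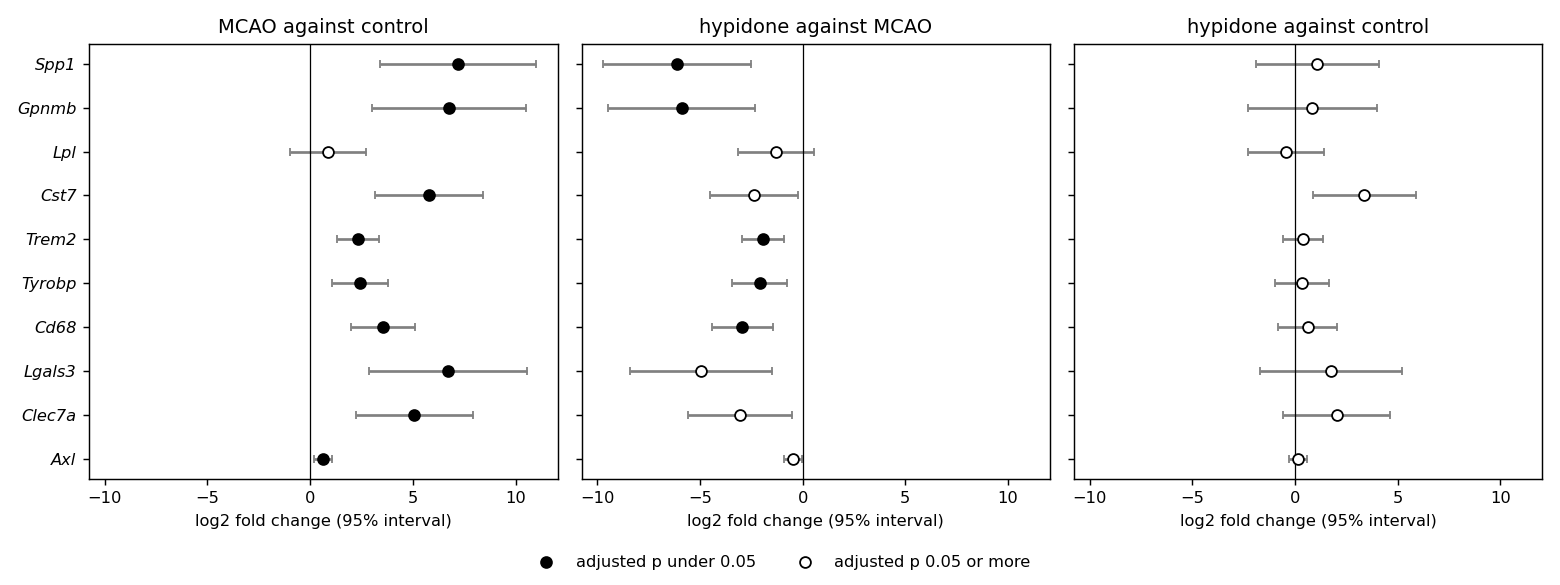
Log2 fold change of each gene in the 3 comparisons with its 95% interval (filled points have an adjusted p under 0.05 over all genes). After MCAO 9 of 10 points are filled, with hypidone against MCAO 5 of 10, and with hypidone against control none.

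Counted by overlap, 7 of the 10 genes had all MCAO libraries above all controls (all but Gpnmb, Lpl and Lgals3), against 16.5% of all genes. For 2 of 10, Trem2 and Cd68, all hypidone libraries lay below all MCAO libraries, against 19.0% of all genes, so by this count the 10 genes were near the background. For 4 of 10 (Trem2, Tyrobp, Cd68 and Clec7a) all hypidone libraries lay above all controls, against 3.86% of all genes, though none of the 4 passed the test against control.

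The 3 MCAO libraries kept 1 order across the genes. MCAO 5 was highest, then MCAO 6 and MCAO 4, in 9 of the 10, with Lpl the exception. The ratio of MCAO 5 to MCAO 4 was 224 for Gpnmb, 213 for Spp1, 172 for Lgals3 and 37.3 for Clec7a, between 4.10 and 9.69 for Cst7, Trem2, Tyrobp, Lpl and Cd68, and 1.61 for Axl. The median range of the 10 genes within a group, on the log2 scale, was 3.40 in MCAO, 1.01 in hypidone and 0.69 in control, where that of all genes was 0.61, 0.26 and 0.41. Hypidone 7 was the highest of its group in 6 members, hypidone 2 in Cst7 and Clec7a, and hypidone 8 in Spp1 and Lpl. MCAO 4 was lower than all 3 hypidone libraries in Lpl and Lgals3, lower than 2 of them in Spp1 and Clec7a, lower than 1 in Gpnmb, Cst7, Tyrobp and Axl, and above all of them in Trem2 and Cd68.

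**Figure D3:**
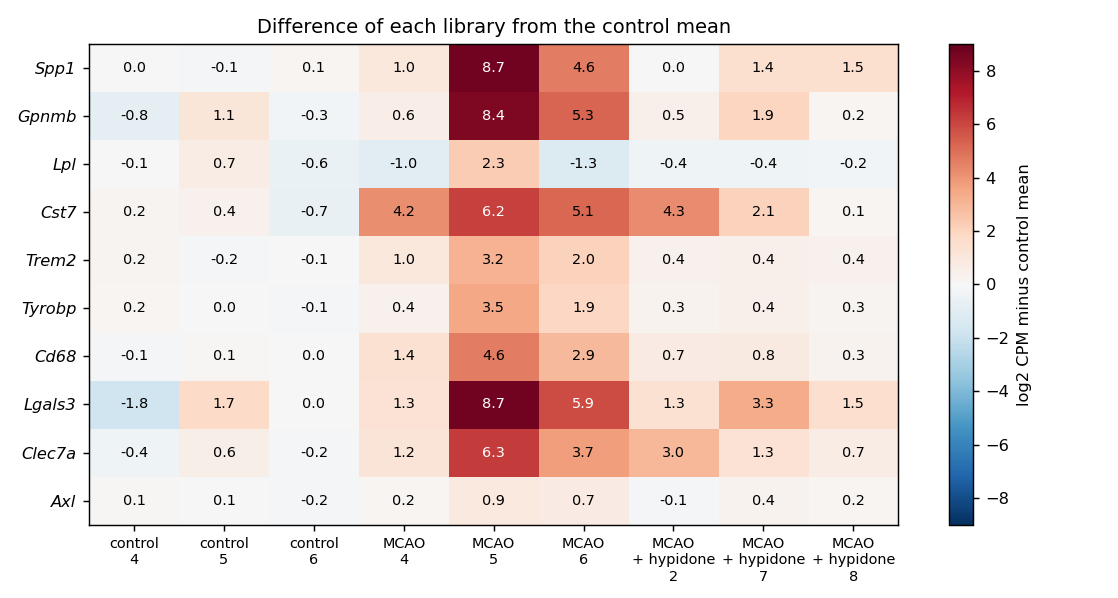
Log2 CPM of each gene in each library minus the mean of the 3 controls. MCAO 5 carries the largest value in each row, and in the column of MCAO 4 the largest value is that of Cst7.

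Levels were compared between the genes by FPKM, which scales counts by gene length. Tyrobp was the highest of the 10 in all controls (31.3 to 38.1 FPKM), in all hypidone libraries (42.0 to 47.2) and in MCAO 4 (43.3). Spp1 took its place in MCAO 5 (3333 FPKM, with Tyrobp at 415) and in MCAO 6 (189 FPKM, with Tyrobp at 134). Gpnmb, Lgals3, Clec7a and Cst7 filled the lowest 4 places in each control, at 0.0598 to 1.51 FPKM. In MCAO 5 Gpnmb (257 FPKM) and Lgals3 (164 FPKM) stood above Trem2 (125 FPKM), and Axl (18.9 FPKM) was the second lowest, just below Clec7a (19.7 FPKM).

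Markers of microglia and of other phagocytes moved beside these genes. The 13 markers of resting (homeostatic) microglia were detected in all libraries, with a summed level of 563 to 617 CPM in control, 554, 1748 and 878 CPM in MCAO 4, 5 and 6, and 611 to 726 CPM in hypidone. Of those 13 genes 2 rose after MCAO and 1 fell, where 10.6% and 9.81% of all genes did, with a median of 0.16. With hypidone 2 rose and 2 fell against MCAO, where 8.23% and 8.28% of all genes did. Without MCAO 5 the counts were 2 higher and 7 lower after MCAO, and 9 higher and 2 lower with hypidone, while over the 9 fits with a library left out those lower after MCAO ran from 0 to 7 and those higher with hypidone from 0 to 9. Border macrophage markers (8 genes, Mrc1 and Lyve1 among them) summed to 8.38 to 11.7 CPM in control, 13.4, 244 and 21.2 CPM in MCAO 4, 5 and 6, and 14.1 to 39.4 CPM in hypidone, where hypidone 7 was highest. Blood monocyte and macrophage markers (10 genes, Ccr2 and Ly6c2 among them) summed to 81.3 to 101 CPM in control, 114, 726 and 175 CPM in MCAO 4, 5 and 6, and 106, 297 and 151 CPM in hypidone 2, 7 and 8, most of it Fn1. Of the 8 tested, 3 rose after MCAO (median 1.63) and 3 fell with hypidone, where 10.6% and 8.28% of all genes did. With 1 library left out these counts ran from 2 to 6 and from 0 to 4. Estimates after MCAO were above 0 for 6 and below 0 for 2. Chil3 had at most 0.240 CPM in control and 1.11, 41.7 and 5.00 CPM in MCAO 4, 5 and 6. Ccr2 had at most 0.326 CPM in control and was at 0 in control 4. It had 2.01 CPM in MCAO 5 and 2.33 CPM in hypidone 7, its highest library. Neutrophil markers (9 genes) summed to 0.479 to 3.55 CPM in control, 3.84 to 17.0 CPM in MCAO and 6.36 to 16.7 CPM in hypidone. Ly6g was at 0 in 6 of the 9 libraries, while Mmp8 reached 8.18 CPM in MCAO 5 and S100a9 6.79 CPM in hypidone 7. Of the 6 neutrophil markers tested, 1 rose after MCAO and none was called with hypidone against MCAO. With 1 library left out, 0 to 2 were called higher in each comparison. Estimates after MCAO were above 0 for 5 and below 0 for 1. Markers of other cells moved too. Red cell genes (5) summed to 41.9 to 72.7 CPM in control, 4.31 to 28.0 CPM in MCAO and 71.3 to 187 CPM in hypidone, and all 5 were called higher with hypidone against MCAO (1 without hypidone 7 or hypidone 8, 3 without MCAO 6). Endothelial genes (8) summed to 223 to 371 CPM in control, 435 to 797 CPM in MCAO and 332 to 384 CPM in hypidone, and 4 of 8 rose after MCAO (2 without control 4). Astrocyte genes (8) summed to 7842 CPM in MCAO 5 and 9801 CPM in MCAO 6, against 5112 to 6216 CPM in the other 7 libraries. The part of all these markers in the changes of the 10 genes was not tested, and in RNA from whole tissue, fewer cells of a type and less RNA per cell cannot be told apart.

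**Figure D4:**
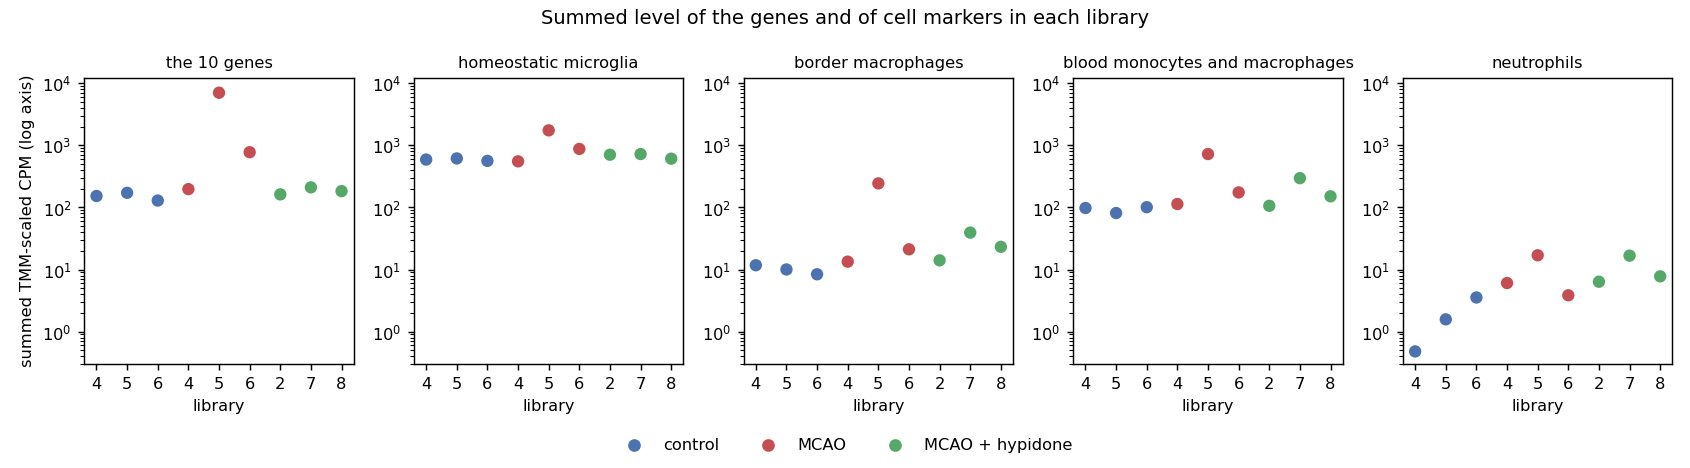
Summed CPM per library (log axis) of the 10 genes and of markers of homeostatic microglia, border macrophages, blood monocytes and macrophages, and neutrophils. MCAO 5 is the highest library in each list, and the 10 genes span a wider range there (197 to 7065 CPM in MCAO) than the homeostatic markers (554 to 1748 CPM).

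Set against the summed homeostatic markers of the same library, Cd68 was 2.06% to 2.28% of that sum in control, 6.02%, 18.5% and 11.3% in MCAO 4, 5 and 6, and 2.60% to 3.12% in hypidone. Trem2 was 2.14% to 2.98% in control, 5.27%, 7.62% and 7.04% in MCAO, and 2.73% to 3.16% in hypidone. The MCAO libraries thus differed less among themselves in Trem2 on this scale than in CPM, and they lay above both other groups for both genes. Axl was 8.14% to 9.38% in control, 10.7%, 5.45% and 9.65% in MCAO 4, 5 and 6, and 6.90% to 9.43% in hypidone, so that its MCAO libraries overlapped both groups. These percentages are a description and were not tested.

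Other genes of disease-associated microglia also rose. After MCAO 10 of 18 tested were called higher and none lower, where 10.6% and 9.81% of all genes were. The median log2 fold change was 2.03. With hypidone against MCAO 6 of 18 were called lower, where 8.28% of all genes were. The lowest p-values were those of the lysosomal proteases Ctsl (1.89 ± 0.34 after MCAO and -1.73 ± 0.34 with hypidone), Ctsd (2.54 ± 0.51 and -2.25 ± 0.51) and Ctsz (2.22 ± 0.53 and -1.81 ± 0.52), and of the actin-capping protein Capg (3.93 ± 0.92 and -3.32 ± 0.89). All 4 passed in both comparisons, and with 1 library left out Ctsl was called in 9 of 9 fits after MCAO and 6 of 9 with hypidone, Ctsd in 8 and 5, Capg in 7 and 3, and Ctsz in 6 and 2. The filter was rerun in each such fit, so the genes of the list that were tested could differ from the 18 of the main fit. The number of this list called ran from 2 (without control 6) to 19 (without MCAO 4) after MCAO. With hypidone it ran from 0 (without any 1 of the hypidone libraries) to 16 (without MCAO 4).

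The list downstream of Trem2 and Tyrobp held 12 genes of signalling through tyrosine motifs (Syk and its partners). Of these 5 rose after MCAO, against 10.6% of all genes, with a median of 1.72, and 3 fell with hypidone, against 8.28%. With 1 library left out both counts ran from 1 to 11, and 11 was reached without MCAO 4. Blnk, a linker protein for Syk, rose by 3.06 ± 0.39 (adjusted p = 0.00391) and fell by 2.82 ± 0.38 with hypidone (adjusted p = 0.00547). Its levels were 6.16, 4.399 and 9.17 CPM in control, 27.6, 59.7 and 76.8 CPM in MCAO 4, 5 and 6, and 7.62 to 7.89 CPM in hypidone. The MCAO libraries of Blnk lay clear of all others, MCAO 6 was its highest library, and it was called in 9 of 9 fits with a library left out in both comparisons. Inpp5d (SHIP1, a lipid phosphatase that damps this pathway) rose by 1.77 ± 0.38 and fell by 1.41 ± 0.37 with hypidone, and Malt1, a protease on the way to NF-kB, rose by 1.14 ± 0.31 and fell by 1.37 ± 0.31. The phosphatase gene Ptpn6 rose by 2.05 ± 0.57 after MCAO, and its difference of -1.63 ± 0.56 with hypidone did not pass. With 1 library left out after MCAO, Inpp5d was called in 8 of 9 fits and Malt1 and Ptpn6 in 2 of 9, and with hypidone Inpp5d in 3 and Malt1 in 5.

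Among 15 other phagocytic receptors and bridging proteins, 9 rose and 1 fell after MCAO (median 1.37), against 10.6% and 9.81% of all genes. With hypidone 4 fell and 1 rose, against 8.28% and 8.23% of all genes. With 1 library left out, 1 (without control 4 or control 6) to 11 (without MCAO 4) rose after MCAO, and 0 (without any 1 of the hypidone libraries) to 10 (without MCAO 4) fell with hypidone. Estimates after MCAO were below 0 for 2 of the 15, and those with hypidone above 0 for 3. Without control 5, 2 genes were called in these directions in each comparison. With all libraries the only gene so called was Mfge8, a secreted bridge between dying cells and integrins. It had 157 to 180 CPM in control, 58.8, 70.4 and 51.9 CPM in MCAO 4, 5 and 6, and 142 to 166 CPM in hypidone. Mfge8 fell by 1.45 ± 0.14 after MCAO (adjusted p = 0.00160) and rose by 1.38 ± 0.14 with hypidone (adjusted p = 0.00201), in 9 of 9 fits with a library left out for each and its 3 MCAO libraries lay close together. The Fc receptor gene Fcgr3 rose by 2.68 ± 0.45, Havcr2 (TIM-3) by 1.92 ± 0.42 and the scavenger receptor gene Msr1, with at most 0.244 CPM in control, by 7.64 ± 1.78. All 3 fell with hypidone, with log2 fold changes of -2.09 ± 0.44, -1.89 ± 0.42 and -5.57 ± 1.55. Fcgr3 was called in 9 of 9 fits with a library left out after MCAO, and Havcr2 and Msr1 in 7 of 9. With hypidone the counts were 5, 6 and 2 of 9, and without MCAO 5 the change of Msr1 was 4.87 after MCAO and -2.79 with hypidone.

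Of 15 genes of cholesterol efflux and lysosomal lipid handling, 7 rose and 1 fell after MCAO, against 10.6% and 9.81% of all genes. Their median was 0.85, and with hypidone 6 fell and 1 rose, against 8.28% and 8.23% of all genes. With 1 library left out, 3 (without control 4 or control 6) to 12 (without MCAO 4) rose after MCAO, and 2 (without hypidone 7 or hypidone 8) to 11 (without MCAO 4) fell with hypidone. The gene that went the other way was Nr1h2, which encodes the sterol receptor LXR-beta and is named after its values were seen, at -0.46 ± 0.13 after MCAO (adjusted p = 0.0342) and 0.60 ± 0.13 with hypidone (adjusted p = 0.0169). The sterol pump gene Abca1 had 33.4 to 35.3 CPM in control, 131, 376 and 197 CPM in MCAO 4, 5 and 6, and 39.7 to 61.4 CPM in hypidone, with no overlap between any pair of groups. Abca1 rose by 2.77 ± 0.35 (adjusted p = 0.00391) and fell by 2.20 ± 0.34 with hypidone (adjusted p = 0.00689). Npc1, which moves cholesterol out of lysosomes, rose by 0.85 ± 0.14 and fell by 0.85 ± 0.14, the pump gene Abcg1 rose by 0.72 ± 0.13 and fell by 0.71 ± 0.13, and the lysosomal enzyme gene Ctsa rose by 1.45 ± 0.31 and fell by 1.31 ± 0.31. Calls of Abca1 and Npc1 held in 9 of 9 fits with a library left out in both comparisons, those of Abcg1 in 9 and 7, those of Ctsa in 7 and 5, and those of Nr1h2 in 3 and 6.

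Of 9 regulators tested, 4 rose after MCAO and 3 fell with hypidone, against 10.6% and 8.28% of all genes. The medians were 0.58 and -0.57. Without control 4 or control 6 none rose after MCAO, and without MCAO 6 or any 1 of the hypidone libraries none fell with hypidone, while both counts were 4 without MCAO 4. Spi1, which encodes the macrophage factor PU.1, rose by 2.13 ± 0.47, Runx1 by 3.01 ± 0.69, and the interferon regulatory factor gene Irf8 by 2.08 ± 0.48. With hypidone Spi1 fell by 1.61 ± 0.46, Runx1 by 2.68 ± 0.68 and Irf8 by 1.76 ± 0.47. With 1 library left out after MCAO, Spi1, Runx1 and Irf8 were each called in 7 of 9 fits, and with hypidone in 2, 4 and 3. The homeostatic list changed in both directions: Csf1r, the growth factor receptor of microglia, rose by 1.31 ± 0.25, whereas the sugar transporter gene Slc2a5 fell by 1.44 ± 0.32. With hypidone Csf1r fell by 1.03 ± 0.25 and Slc2a5 rose by 1.40 ± 0.32, calls that each held in 5 of 9 fits with a library left out, against 9 and 7 after MCAO. No gene of any of these lists was called between hypidone and control.

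The genes outside the lists whose pattern lay nearest to the mean of the 10 were Itgb2, the beta chain of leukocyte integrins (root mean square difference 0.113 over the 9 libraries, each gene centred and divided by its SD), Fermt3 (0.124), Adgre1, which encodes the macrophage marker F4/80 (0.130), the lysosomal membrane gene Laptm5 (0.132) and the transcription factor gene Zfhx3 (0.135), among 12435 genes compared. The same measure ran from 0.155 for Tyrobp and 0.166 for Cd68 to 0.541 for Cst7 and 0.848 for Lpl, so these 2 members followed the common pattern least. Itgb2 had 6.42 to 9.12 CPM in control, 11.9, 99.3 and 31.4 CPM in MCAO 4, 5 and 6, and 7.88 to 11.9 CPM in hypidone. Itgb2 and Laptm5 were called after MCAO and with hypidone against MCAO. Fermt3 and Adgre1 were called after MCAO only (adjusted p = 0.0694 and 0.0592 with hypidone). Zfhx3 was called in neither (adjusted p = 0.0530 and 0.0972). With 1 library left out, Itgb2 kept its calls in 7 and 2 of 9 fits and Laptm5 in 7 and 3. After MCAO Fermt3 kept its call in 2 fits and Adgre1 in 7.

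The authors' deposited table of comparisons gave folds close to the fitted ones, with Spp1 at 146, Lgals3 at 107, Gpnmb at 106 and Cst7 at 55.6 after MCAO. Of the 10 genes, 9 had a q-value under 0.05 after MCAO in the authors' deposited table, all but Lpl (0.655), with Axl at 0.0497. For hypidone against MCAO the authors' deposited table also had Cst7 (0.0469) and Lgals3 (0.0107) under that threshold, which edgeR did not call, and Clec7a (0.0892), Axl (0.117) and Lpl (0.411) above it.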

How the data were processed

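Brain RNA of 9 mouse libraries, 3 per group, was extracted with TRIzol and made into libraries using the VAHTS Universal kit, as the labels' protocols state. Raw counts per gene symbol were deposited by the authors. The authors' FPKM values divide each count by the library's total and 1 length per gene, as the values show. A further deposited table holds the authors' own comparisons, as a linear ratio of groups with its q-value. The submitters' processing notes name mm10 and DESeq2 without a role. How reads were aligned, counted and assigned to a strand is not given in the sources used here, and counts of overlapping genes are therefore uncertain. All table columns matched a sample by title, and no pair of replicates agreed within sampling noise.

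Genes were filtered with filterByExpr (14756 of 18138 kept), scaled with TMM, and tested in 1 quasi-likelihood fit over all 9 libraries (edgeR 4.0.16, R 4.3.3, 6 residual degrees of freedom), with two-sided F tests and Benjamini-Hochberg adjustment over all tested genes at 0.05. The SE of a log2 fold change is its size over the square root of F. Log2 CPM used a prior count of 2. The fit was also run on simulated data, and the outcome is not reported here. Precision rests on 3 libraries per group more than on depth, and fits that leave a group with 2 libraries share the spread of the other groups.

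The members and the other gene lists were chosen with earlier results of these data known. From each pathway list the tested genes with the lowest p after MCAO were named, up to 4 (3 for homeostatic microglia), and the 5 genes most like the member mean, where genes under 1 in average log2 CPM were left out. A few genes named by this rule are not reported here. Motifs were searched as exact letters. Alternatives were DESeq2 size factors, library totals, no filter, CPM of at least 1 in 3 libraries, DESeq2 1.42.0, limma 3.58.1 (voom with quality weights, and log2 of the authors' FPKM plus a pseudocount of 1 or 0.1), only the groups compared, a replicate block, and leaving out each library.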

Additional observations from a re-analysis of the deposited data

How the results depend on the processing

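DESeq2 size factors and the CPM filter left the same counts of members called, and library totals or no filter lost Axl after MCAO. These scalings moved the median of all genes by at most 0.04. The count of members called after MCAO (9) became 3 on FPKM with either pseudocount and 1 with only the groups compared, and ran from 2 to 9 with 1 library left out. For hypidone against MCAO (5) it became 8 in DESeq2, 9 in limma voom, 0 on FPKM with a pseudocount of 1 (6 with an unadjusted p under 0.05), 2 with a pseudocount of 0.1 and 2 with only the groups compared, and ran from 0 to 8 with 1 library left out. Against control no alternative called a member. In the fit of only hypidone and control, 5 of the 9 members tested had an unadjusted p under 0.05, as did 369 of 14360 genes. In the main fit 1 member and 131 of 14756 genes did. Over all genes, the 3015 calls after MCAO became 7428 in voom and 682 with only the groups compared (1093 to 4275 with 1 library left out). The 2437 calls with hypidone became 4011 in DESeq2 and 7631 in voom (548 to 3875), and DESeq2 called 1 gene between hypidone and control. The direction of Lpl turned after MCAO in voom (-0.72), under the replicate block (-0.021) and without MCAO 5 (-1.20; -1.20 to 1.31 with 1 library left out), and with hypidone in voom (0.69) and without MCAO 5 (0.76; -1.75 to 0.76). No other direction of a member or named gene turned where it was run. Of 549 values of single members under alternatives, 441 kept direction and side of the threshold, 91 lost their call and 12 gained one. The cause was not tested.

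Control and MCAO share title numbers. With the number as a replicate block, edgeR called 0 members and 0 genes after MCAO, where 8 members and 3849 genes had an unadjusted p under 0.05. Deviations of same-numbered libraries correlated at 0.118, 0.123 and -0.042, and those of MCAO 4 and control 6 at 0.124. With 3 libraries per group, these values cannot tell whether the numbers pair the samples. Depth limits Cst7, Lgals3 and Clec7a in control. Cst7 held 5, 7 and 2 counts there, Lgals3 held 3 in control 4, and Clec7a held 10 in control 4.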
